A study of Mus musculus with 9 samples.

Results

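The 32 genes described here encode the enzymes and regulators of de novo lipogenesis, fatty acid elongation and desaturation, acyl-CoA activation and triglyceride synthesis in mouse liver, taken by name from the 16755 genes of the deposited RNA-seq table. All 32 were found. RNA-seq was performed on 9 samples in 3 groups of 3 mice, and all groups carried Scd2f/f, the stearoyl-CoA desaturase 2 gene with an exon flanked by loxP sites, on a background given as C57BL/6 in the labels and as C57BL/6J in the study's methods. The first group was Scd2f/f mice labelled untreated. The second group was Scd2f/f mice given diethylnitrosamine (DEN), a hepatocarcinogen, by injection when 2 weeks old (10 mg/kg) and then fed the Western alcohol diet (WAD), a liquid feed in which ethanol is combined with lard and cholesterol, which by the labels began at 6 weeks and lasted 4 months. The third group was Scd2f/f;Col1a1-Cre (Scd2f/f;CC) mice on the same DEN and WAD regimen, in which Cre is driven by the Col1a1 promoter and therefore acts in collagen-producing cells, the activated hepatic stellate cells (HSC) and portal fibroblasts. The study used male mice. Its methods give a longer feeding period, and the labels attach the DEN and WAD protocol text also to the samples whose treatment is given as untreated. The labels call the tissue liver, and the study's text calls the tissue of the DEN and WAD mice tumor-adjacent liver (TAL), which its sequencing methods name NTL. The study gives a single age range for all its mice. An age for the untreated group by itself and the time of day of collection are not given in the sources used here, and the regimen, the age and the state of the tissue cannot be told apart between untreated liver and TAL.

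De novo lipogenesis turns citrate exported from mitochondria, or acetate, into cytosolic acetyl-CoA, which acetyl-CoA carboxylase and fatty acid synthase build into palmitate. Elongases and desaturases lengthen and unsaturate palmitate and dietary fatty acids, and acyl-CoA synthetases activate them for esterification to glycerol 3-phosphate, up to triglyceride. In liver the pathway is under transcriptional control by SREBP-1c, which responds to insulin and to liver X receptors, and by ChREBP, which responds to carbohydrate, and its mRNAs are known to vary with feeding and over the day.

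The table gives 1 mean of upper-quartile normalized counts per group and no value of a single mouse. No spread between mice and no test was therefore computed for any value below, and the authors' own test columns were not used. A difference between groups is a ratio of 2 means, and higher or lower states only the order of those means. The read depth is unknown. Where a gene has 3 means, they are those of untreated liver, then of Scd2f/f TAL, then of Scd2f/f;CC mice. The upper quartile of the means over all genes was 15.5, 15.5 and 15.4. The targeted gene Scd2 on chromosome 19 from 44293676 to 44306864 (mm10, as all coordinates below) had means of 2.46, 6.47 and 1.87, so that its level in Scd2f/f;CC TAL was 0.289 of that in Scd2f/f TAL. In whole tissue, loss of Scd2 from cells and fewer cells that express it cannot be told apart. The hepatocyte markers matched the labelled tissue, with a summed level over 10 genes of 45490, 45440 and 51010 and Alb, which encodes albumin, at 21300, 20900 and 22700. Their single levels were less even than the sum. Between untreated liver and Scd2f/f TAL, 7 of the 10 were lower, 1 of them at least 2-fold, and 3 were higher, with a median ratio of 0.871.

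Promoter sequences of members past 2-fold between Scd2f/f TAL and untreated liver, among those with a mean over the groups of at least 10, are shown here so that the later values can be read beside their control regions. RefSeq promoters (GRCm38.p6, the 250 bases before a transcript start) were found for 28 of the 32 genes in 39 entries, and Elovl3, Fads1, Dgat1 and Dgat2 have none in that table. The following lines give the bases that lie before the gene model for the 4 genes that were at least 2-fold lower in Scd2f/f TAL than in untreated liver, and for Elovl5, which was at least 2-fold higher. Elovl7, also past 2-fold, is left out for its mean below 1. Each is written 5′ to 3′ on the strand of its gene, at chr7:97417731-97417800 (minus) for Thrsp, chr12:16610967-16611216 (minus) for Lpin1, chr11:100528001-100528250 (minus) for Acly, chr2:155517793-155517947 (plus) for Acss2 and chr9:77917115-77917363 (plus) for Elovl5. Capitals mark the E-box CACGTG and the CCAAT box on either strand (CCAAT or ATTGG).
Thrsp: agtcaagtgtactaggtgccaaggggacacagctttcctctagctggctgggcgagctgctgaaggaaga
Lpin1: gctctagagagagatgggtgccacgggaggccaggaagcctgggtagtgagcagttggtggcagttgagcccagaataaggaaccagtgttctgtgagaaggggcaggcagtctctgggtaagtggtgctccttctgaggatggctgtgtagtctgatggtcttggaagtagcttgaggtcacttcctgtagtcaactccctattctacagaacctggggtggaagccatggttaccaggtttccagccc
Acly: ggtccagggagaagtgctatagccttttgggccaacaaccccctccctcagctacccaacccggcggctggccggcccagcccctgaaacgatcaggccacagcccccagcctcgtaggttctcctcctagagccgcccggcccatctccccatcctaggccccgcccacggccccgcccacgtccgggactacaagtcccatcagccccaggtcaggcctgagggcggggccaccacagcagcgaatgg
Acss2: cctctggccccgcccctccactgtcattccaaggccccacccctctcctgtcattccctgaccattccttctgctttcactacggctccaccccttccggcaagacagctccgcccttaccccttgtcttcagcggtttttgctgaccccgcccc
Elovl5: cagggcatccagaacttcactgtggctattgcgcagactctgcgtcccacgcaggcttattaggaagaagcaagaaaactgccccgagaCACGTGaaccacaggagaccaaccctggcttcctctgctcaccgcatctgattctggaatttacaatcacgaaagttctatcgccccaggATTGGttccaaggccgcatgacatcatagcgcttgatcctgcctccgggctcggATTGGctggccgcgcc
Among these 5 stretches, capitals stand in that of Elovl5 alone, which holds 1 E-box and 2 CCAAT boxes. The Thrsp and Acss2 stretches are short because the gene model of the file reaches 180 and 95 bases into their RefSeq windows. In the whole windows of 250 bases, Thrsp had 2 CCAAT boxes, the first bases of which lie 52 and 79 bases before the RefSeq start, Acss2 had 1, and Lpin1 and Acly had neither motif.

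The E-box CACGTG, searched on both strands, was in 4 of the 39 member entries (10.3%), those of Elovl5, Lpin2, Mlxipl and Slc25a1, and in 6.02% of all 32851 promoter entries. A CCAAT box on either strand was in 18 member entries (46.2%) and in 33.8% of all entries. The sterol response element, searched as TCACNCCAC on both strands, was in 2 member entries (5.13%), those of Acsl1 and Mlxipl, and in 1.05% of all. The carbohydrate response element, a pair of imperfect E-boxes, was in 0 member entries and in 0.0974% of all, which says only that these letters are not in these windows. The motifs do not overlap in the 5 stretches shown, and a match is a description of letters.

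The first comparison set Scd2f/f TAL against untreated Scd2f/f liver, both from floxed mice without Cre. It cannot separate the DEN and WAD regimen from the age and the state of the tissue. The precursor end of the pathway was lower and part of the elongation branch was higher in TAL. Of the 32 genes, 4 were at least 2-fold lower, Thrsp, Lpin1, Acly and Acss2, and 3 were at least 2-fold higher, Elovl7, Elovl3 and Elovl5. Of all 16755 genes, 4.69% were at least 2-fold lower and 9.37% at least 2-fold higher, and the members' shares were 12.5% and 9.375%, so the share that was higher matched the background. Among the 27 members with a mean over the groups of at least 10, 4 were lower and 2 higher, beside 2.63% lower and 2.6% higher among 5586 genes of that level. At 1.5-fold in either direction the count was 10 of 32 (31.25%) beside 28.5% of all genes, and at 3-fold it was 2 (Thrsp and Lpin1) beside 6.22%. The median log2 ratio of the 32 genes was -0.04, beside 0.04 over all genes, with 15 members higher and 17 lower. As the whole tissue was measured, fewer cells of a type and less RNA per cell cannot be told apart.

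**Figure D1:**
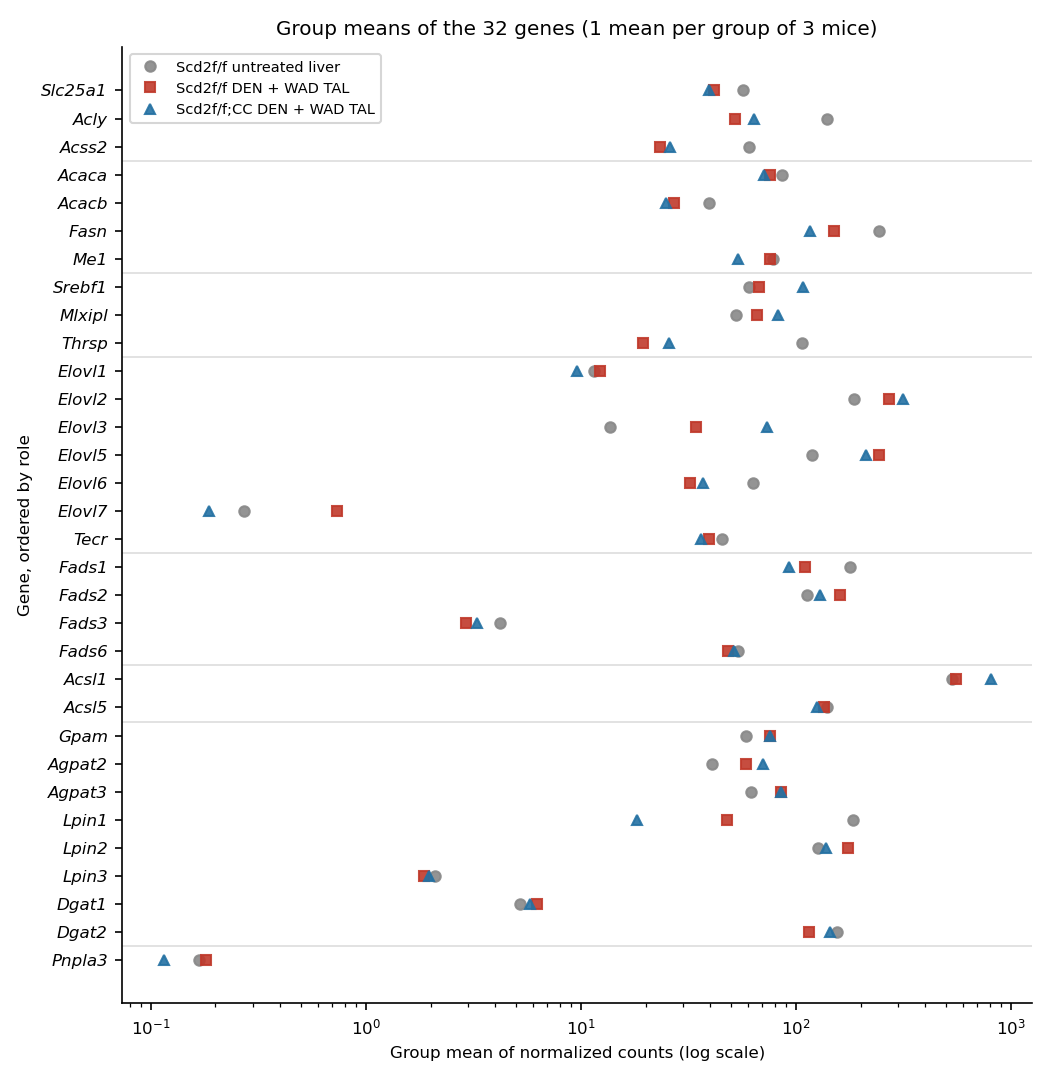
Group means of upper-quartile normalized counts (log axis) of the 32 genes, ordered by role, with a grey circle for untreated Scd2f/f liver, a red square for Scd2f/f TAL and a blue triangle for Scd2f/f;CC TAL; each point is 1 mean of 3 mice, with no error available. Acsl1 has the highest points, from 532 to 806, Pnpla3 and Elovl7 lie below 1, and the red and blue points of Thrsp, Lpin1, Acly and Acss2 lie left of the grey ones.

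All 3 genes that supply cytosolic acetyl-CoA were lower in Scd2f/f TAL. The ATP-citrate lyase gene Acly (chromosome 11, 100476353 to 100528000, minus strand) had means of 139, 52.2 and 63.6, which put Scd2f/f TAL at 0.376 of untreated liver (log2 -1.41). The gene of the cytosolic acetyl-CoA synthetase, Acss2 (chromosome 2, 155517948 to 155585724, plus strand), had means of 60.4, 23.3 and 26.1, a ratio of 0.386 between the first 2 groups. Both genes were therefore highest in untreated liver and lower in both kinds of TAL. Slc25a1, which encodes the mitochondrial citrate carrier, differed less, with means of 56.9, 41.7 and 39.3. Exons of Acss2 overlap those of Gss on the opposite strand, and Gss had means of 40.0, 38.5 and 30.7. The labels name the TruSeq RNA v2 kit, which does not mark strand, and the strand setting of the counting is not stated, so such genes are uncertain. Exons of 7 of the 32 genes overlap those of another gene on either strand, among them Me1 with A330041J22Rik and Pnpla3 with Gm49513, which were not analysed here, and Elovl1 with Cdc20 (0.223, 0.959 and 0.492).

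The 4 genes of fatty acid synthesis proper were lower in Scd2f/f TAL, but none reached 2-fold between untreated liver and Scd2f/f TAL. Fasn, the fatty acid synthase gene, had means of 243, 150 and 116. It was 1.62-fold lower in Scd2f/f TAL than in untreated liver, a further 1.29-fold lower in Scd2f/f;CC TAL, and 2.10-fold lower in Scd2f/f;CC TAL than in untreated liver. The acetyl-CoA carboxylase genes were Acaca at 86.1, 75.5 and 70.8 and Acacb, whose product sits at the mitochondrial membrane, at 39.5, 27.0 and 24.9. Me1, the cytosolic malic enzyme that makes NADPH, had means of 78.1, 76.0 and 54.1. The order of means from untreated liver to Scd2f/f TAL to Scd2f/f;CC TAL was downward for all 4 genes.

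The regulators differed in direction. Thrsp (chromosome 7, 97412938 to 97417730, minus strand), which encodes the lipogenic nuclear protein Spot 14, had means of 107, 19.5 and 25.6, a ratio of 0.182 between Scd2f/f TAL and untreated liver (5.49-fold lower). Among the 5586 genes at a mean of 10 or more, 21 had a lower ratio in that comparison. Srebf1, which encodes SREBP-1, had means of 60.3, 67.7 and 108, and Mlxipl, which encodes ChREBP, had means of 52.9, 66.1 and 82.5. Their means were thus lowest in untreated liver and highest in Scd2f/f;CC TAL, the reverse of Fasn. Srebf1 shares exon positions with Rai1, which is on the opposite strand at 6.55, 5.0 and 5.20. The Pnpla3 means, for a triglyceride lipase known as a steatosis risk gene, were 0.168, 0.180 and 0.115, near the lowest values of the table (0.0400, 0.0348 and 0.0349), so its ratios are uncertain.

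The elongases differed in opposite directions. Elovl3 (chromosome 19, 46131897 to 46135307, plus strand), an elongase of saturated and monounsaturated very long chains, had means of 13.7, 34.3 and 73.2, which are 2.50-fold higher in Scd2f/f TAL than in untreated liver and a further 2.13-fold higher in Scd2f/f;CC TAL. Elovl5 (chromosome 9, 77917364 to 77984519, plus strand), an elongase of polyunsaturated fatty acids, had means of 119, 244 and 212, a ratio of 2.05 between the first 2 groups. Elovl2, which extends longer polyunsaturated chains, had means of 187, 272 and 315. Those 3 genes were lowest in untreated liver. Elovl6, which elongates palmitate to stearate, had means of 63.4, 32.1 and 37.0, a ratio of 0.506 in Scd2f/f TAL. Elovl1 at 11.5, 12.3 and 9.63 and Tecr, the enoyl-CoA reductase of the last step of each elongation cycle, at 45.4, 39.5 and 36.4 stayed closer, between ratios of 0.783 and 1.07 over all comparisons. Elovl7 had means of 0.272, 0.735 and 0.186, and its ratios of 2.70 and 0.253 rest on means below 1.

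Per kilobase of exon, Elovl2 and Elovl5 were the most abundant elongase mRNAs in all 3 groups. Elovl2 made up 41.7%, 37.0% and 39.0% of the summed per-kilobase level of the 6 Elovl genes, and Elovl5 made up 37.8%, 47.3% and 37.4%. The share of Elovl3 was 6.13%, 9.37% and 18.2%, and that of Elovl6 was 9.14%, 2.82% and 2.96%. So the order of Elovl3 and Elovl6 was the opposite in untreated liver and in TAL. Exons of Elovl3 overlap those of Pitx3 on the opposite strand, which had means of 0.103, 0.184 and 0.566.

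**Figure D2:**
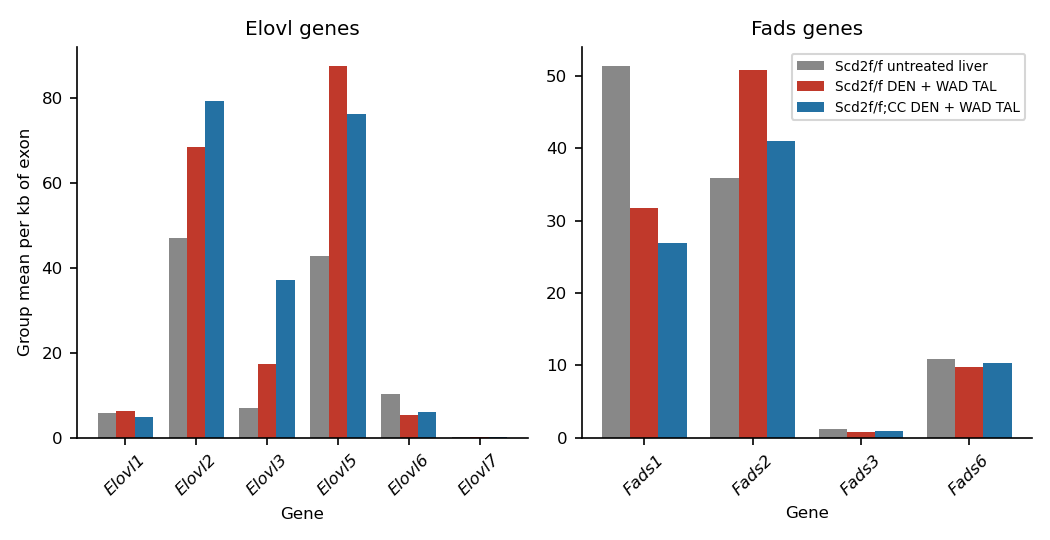
Group mean of normalized counts per kilobase of exon (linear axes from 0) for 6 Elovl genes (left) and 4 Fads genes (right), in grey for untreated liver, red for Scd2f/f TAL and blue for Scd2f/f;CC TAL, with 1 mean of 3 mice per bar and no error available. The Elovl3 bars grow from 6.94 to 17.4 to 37.1, and Fads1 is the taller of Fads1 and Fads2 in untreated liver only.

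Among the desaturases, Fads1 and Fads2, which make arachidonic and related polyunsaturated fatty acids and lie side by side on chromosome 19 (Fads2 from 10064164 to 10101503, Fads1 from 10182888 to 10196870), differed in opposite directions. Fads1, the delta-5 desaturase gene, had means of 178, 110 and 92.9, and Fads2, the delta-6 desaturase gene, had means of 113, 160 and 129. Their per-kilobase order was accordingly reversed, with Fads1 at 51.4 and Fads2 at 35.9 in untreated liver, and 31.8 and 50.8 in Scd2f/f TAL. Neighbouring Fads3 had means of 4.20, 2.93 and 3.30. Fads6, which lies on chromosome 11, had means of 54.0, 48.2 and 51.4.

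The members of fatty acid activation, Acsl1 and Acsl5, differed little between untreated liver and Scd2f/f TAL. Acsl4, an acyl-CoA synthetase gene outside the 32 that is given below, was lower in Scd2f/f TAL (ratio 0.314). Acsl1, the main long-chain acyl-CoA synthetase gene of hepatocytes, had means of 532, 558 and 806 and the highest per-kilobase level of the 32 genes in all groups (127.5, 133.8 and 193.2). Acsl5 had means of 139, 135 and 125, and its exons overlap those of Zdhhc6 on the opposite strand (32.6, 31.2 and 33.3).

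In glycerolipid synthesis, 5 of 8 genes were higher and 3 lower in Scd2f/f TAL than in untreated liver. Gpam, the mitochondrial glycerol 3-phosphate acyltransferase that makes the committed step, had means of 58.6, 75.5 and 75.7. The acylglycerol phosphate acyltransferase genes were Agpat2 at 40.6, 58.5 and 70.7 and Agpat3 at 61.6, 85.2 and 85.0. These 3 were higher in both kinds of TAL than in untreated liver, by 1.29- to 1.74-fold.

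The phosphatidate phosphatase family, which makes diacylglycerol, split by paralog. Lpin1 (chromosome 12, 16535669 to 16610966, minus strand), which encodes lipin 1, had means of 184, 48.1 and 18.3. It was 3.83-fold lower in Scd2f/f TAL than in untreated liver, a further 2.63-fold lower in Scd2f/f;CC TAL, and 10.1-fold lower between untreated liver and Scd2f/f;CC TAL. Among the 5586 genes at a mean of 10 or more, 43 had a lower ratio than Lpin1 in the first comparison, 9 in the second and 15 in the third. Lpin2, a paralog abundant in liver, had means of 127, 174 and 138, and Lpin3 had means of 2.10, 1.86 and 1.97. The low level of Lpin1 in TAL was therefore not shared by Lpin2, which was 1.37-fold higher in Scd2f/f TAL. The final step had Dgat1 at 5.23, 6.25 and 5.82 and Dgat2, the diacylglycerol acyltransferase that esterifies newly made fatty acids, at 156, 115 and 145.

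**Figure D3:**
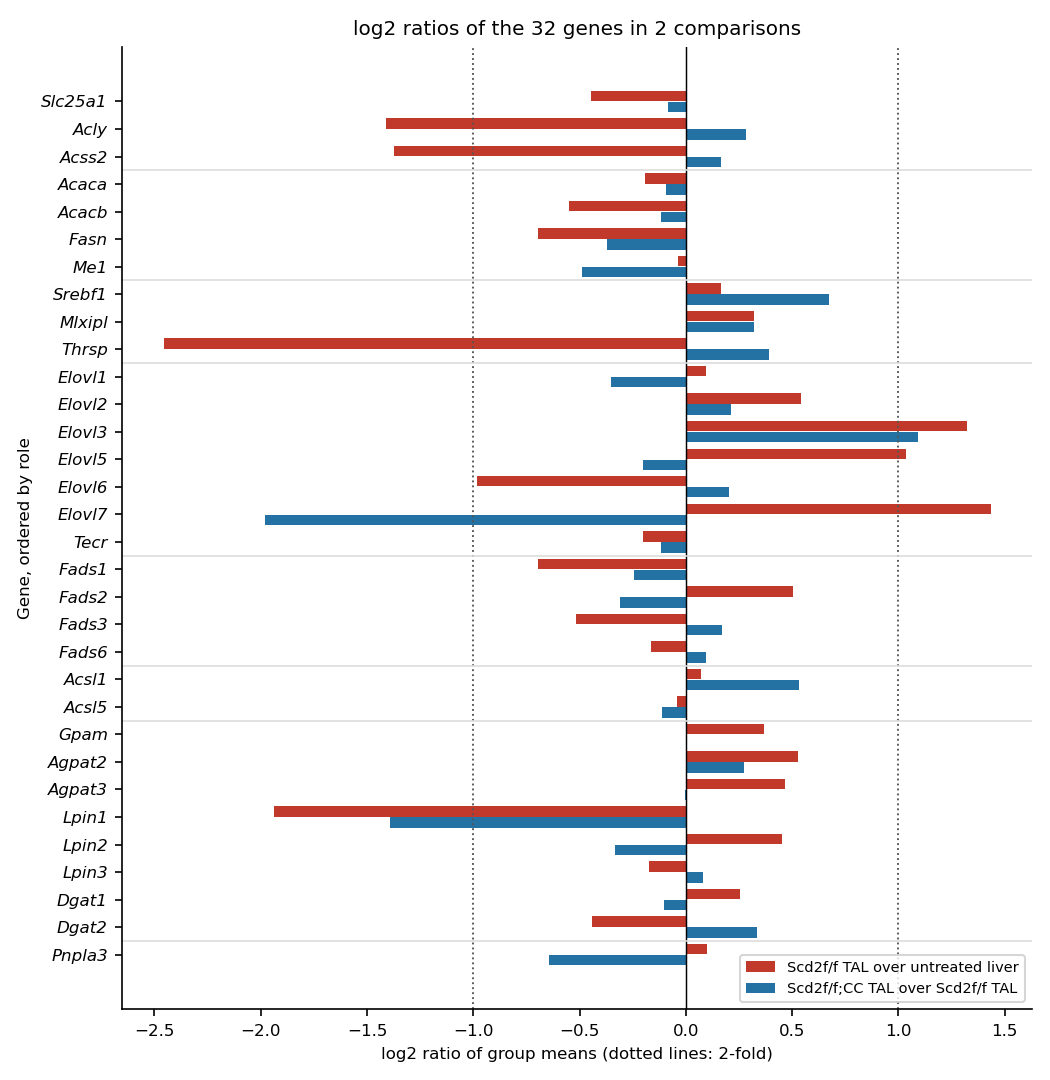
Log2 ratios of group means of the 32 genes, ordered by role, as red bars for Scd2f/f TAL over untreated liver and blue bars for Scd2f/f;CC over Scd2f/f mice after DEN and WAD, with dotted lines at 2-fold and no error available. Lpin1 reaches -1.94 and -1.39 and Elovl3 reaches 1.32 and 1.09, both past the lines in each color.

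The second comparison set Scd2f/f;CC mice against Scd2f/f mice, both after DEN and WAD, which addresses how ablation of Scd2 in Col1a1-expressing cells alters the surrounding liver. At least 2-fold differences were seen for 1 gene higher, Elovl3, and 2 genes lower, Lpin1 and Elovl7. Of all genes, 1.82% were at least 2-fold higher and 4.07% at least 2-fold lower, beside 3.125% and 6.25% of the members. At a mean of at least 10 the counts were 1 higher and 1 lower of 27, beside 0.501% and 0.609% of 5586 genes. At 1.5-fold in either direction they came to 5 (15.62%), those 3 with Srebf1 and Pnpla3, beside 15.5% of all genes, and at 3-fold to 1 (Elovl7) beside 1.74%. The median log2 ratio of the 32 genes was -0.04 and that of all genes 0.00.

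Elovl3 and Srebf1 were the members with the largest higher ratios. Among those 5586 genes, 23 had a higher ratio than Elovl3 (2.13) and 77 had a higher ratio than Srebf1 (1.60, log2 0.67). Acsl1 followed at 1.44, Thrsp at 1.31, Dgat2 at 1.26 and Mlxipl at 1.25, so that all 3 regulators were higher in Scd2f/f;CC TAL. Fasn at 0.773 and Me1 at 0.712, both enzymes downstream of SREBP-1c, were lower while Srebf1 was higher. Acly and Acss2 had ratios of 1.22 and 1.12. Most of the low levels against untreated liver stood in both kinds of TAL, as given above for Thrsp, Acly, Acss2 and Elovl6, while Lpin1 and Elovl3 were the members in which the Scd2f/f;CC mean lay beyond the Scd2f/f TAL mean by more than 2-fold on the same side of untreated liver.

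The markers of other cells differed in this comparison. All 10 markers of HSC and portal fibroblasts were lower in Scd2f/f;CC TAL, 5 of them at least 2-fold, and their summed level was 201.8, 341.9 and 195.7. All 6 cholangiocyte markers were lower, 5 at least 2-fold, with sums of 59.0, 53.9 and 19.2. Only 3 of these 6 had a mean over the groups of at least 1, and 1 of at least 10. That 1 gene makes up most of the sum, with means of 52.3, 45.1 and 14.8. Hepatocyte markers were higher for 9 of 10 genes and the sum was 1.12-fold higher. Scaling the groups to the same hepatocyte sum lowers every log2 ratio of this comparison by 0.17, after which Elovl3 no longer reaches 2-fold, the count at 2-fold is 0 higher and 2 lower in place of 1 and 2, and Acss2, Fads6, Gpam and Lpin3 are lower in place of higher. As that scaling moves every ratio down, Lpin1 and Elovl7 stay at least 2-fold lower by construction. The part of these cell types in the members' ratios was not tested.

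The third comparison set Scd2f/f;CC TAL against untreated liver and shares its samples with both others. In it 1 member, Elovl3, was at least 2-fold higher and 5 were at least 2-fold lower, Lpin1, Thrsp, Acss2, Acly and Fasn. The shares of all genes were 6.41% and 4.64%, and those of the members 3.125% and 15.62%. At a mean of at least 10 the counts were 1 and 5 of 27, beside 2.29% and 2.22%. At 1.5-fold in either direction there were 15 (46.88%) beside 25.8% of all genes, and at 3-fold 3 beside 4.12%, namely Elovl3, Lpin1 and Thrsp. The ratio of Elovl3 was 5.34, and 3 genes with a mean of at least 10 had a higher one. The median log2 ratio was -0.20 for the members and 0.05 for all genes, with 12 members higher and 20 lower.

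**Figure D4:**
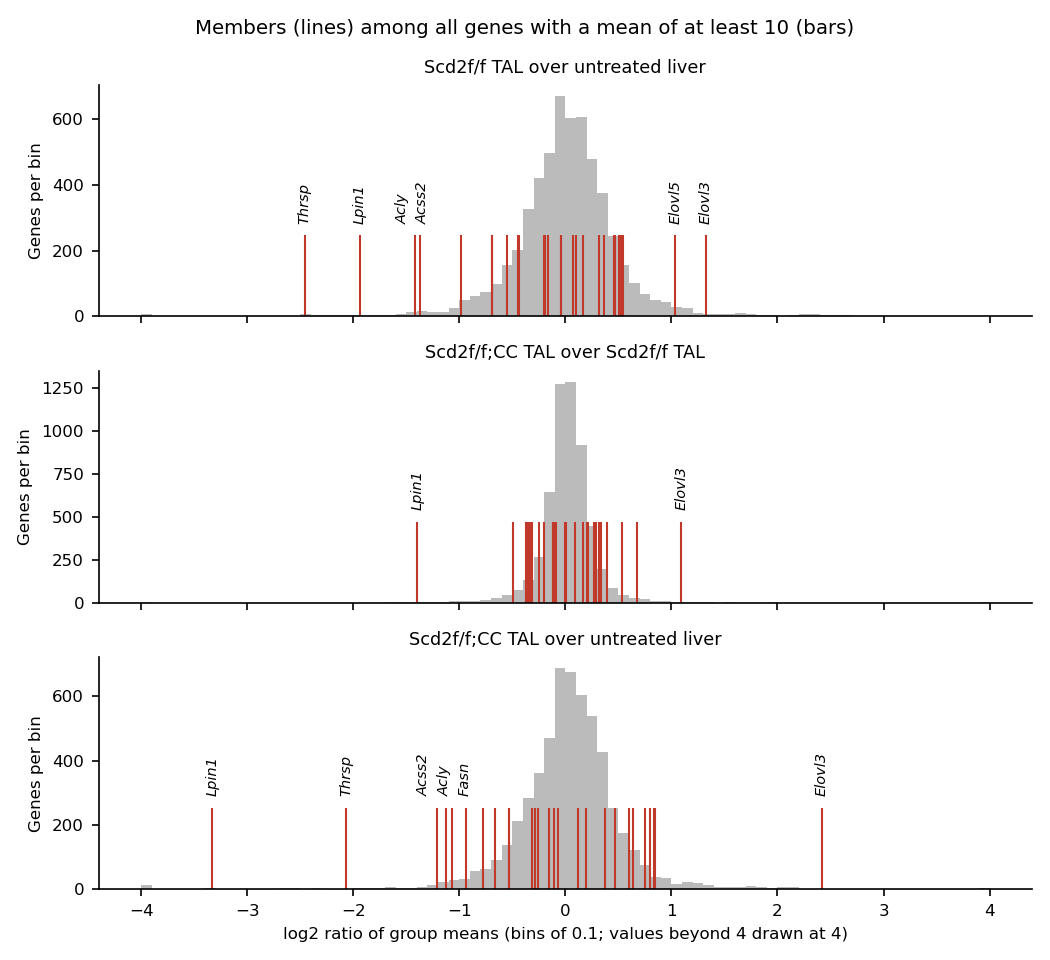
Log2 ratios of group means for all 5586 genes with a mean of at least 10 (grey histogram, bins of 0.1, values beyond 4 drawn at 4) with the 27 members of that level as red lines, those past 2-fold named, for Scd2f/f TAL over untreated liver, Scd2f/f;CC TAL over Scd2f/f TAL, and Scd2f/f;CC TAL over untreated liver. Thrsp, Lpin1, Acly and Acss2 stand in the left tail of the comparison with untreated Scd2f/f liver, and Lpin1 and Elovl3 are the named lines between both kinds of TAL.

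The median absolute log2 ratio of the 27 members with a mean of at least 10 was 0.47 between Scd2f/f TAL and untreated liver, beside 0.24 over all 5586 genes of that level. It was 0.27 beside 0.11 between both kinds of TAL and 0.64 beside 0.24 between Scd2f/f;CC TAL and untreated liver. These are descriptions without a test.

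Of the genes that control the pathway, 21 were analysed. In Scd2f/f TAL over untreated liver 1 was at least 2-fold higher and 1 was at least 2-fold lower, with a median log2 ratio of -0.01. Each is a share of 4.76%, beside 9.37% higher and 4.69% lower of all genes, so the lower share matched the background. Insig2, which retains the SREBP complex in the endoplasmic reticulum, had means of 40.8, 124 and 126, and Insig1, with the same role and itself an SREBP target, had means of 128, 54.1 and 46.1. Between both kinds of TAL 0 of the 21 passed 2-fold in either direction, with 15 higher and 6 lower. Of all genes, 1.82% were at least 2-fold higher and 4.07% lower there. Against untreated liver, Scd2f/f;CC TAL had 1 at least 2-fold higher and 1 lower, beside 6.41% and 4.64% of all genes.

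Of 35 further enzymes of the pathway, 29 were found. In Scd2f/f TAL over untreated liver 9 were at least 2-fold higher (31.03%) and 1 lower (3.448%), beside 9.37% and 4.69% of all genes. The median log2 ratio of the 29 was 0.22. Of the 29, 15 had a mean over the groups of at least 10, and the shares at that level were not computed. Most of the 9 lay below it, among them G6pdx, Gpat3, Hacd4, Scd2 and Acss1, so the higher share is uncertain. Scd1, the main hepatic delta-9 desaturase, had means of 1670, 6360 and 5310, a ratio of 3.81, in contrast to Fasn. The glucose 6-phosphate dehydrogenase gene G6pdx, whose product makes NADPH, had means of 1.20, 4.08 and 2.83. Gpat3, a glycerol 3-phosphate acyltransferase of the endoplasmic reticulum, had means of 2.99, 7.44 and 6.26, and Hacd4, a dehydratase of the elongation cycle, had means of 1.16, 2.87 and 2.58. Acsl4, which prefers arachidonate, had means of 198, 62.2 and 64.5 and was the gene that was lower. Between both kinds of TAL 0 were at least 2-fold higher and 2 were lower (6.897%), Scd2 and Acss1 (0.163, 0.364 and 0.162). The shares of all genes were 1.82% and 4.07%. Scd2 is the gene that the knockout targets, so its lower mean follows from the design. The Acss1 means lie below 1, and its ratio is uncertain. The share of 6.897% is therefore no result about these enzymes.

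Genes of the circadian clock differed between untreated liver and Scd2f/f TAL, and the values are given because Elovl3 and Thrsp mRNA are known to vary over the day. Of 12 clock genes, chosen after their values were seen, 3 were at least 2-fold higher (25%) and 2 at least 2-fold lower (16.67%). The shares of all genes were 9.37% and 4.69%. Arntl, which encodes BMAL1, had means of 0.471, 2.17 and 3.17, and Npas2 had means of 0.0515, 0.445 and 0.6. The ratios of both rest on untreated means below 1 and are uncertain. Nr1d1, which encodes the repressor REV-ERB alpha, had means of 18.9, 43.1 and 43.9. Per2 had means of 16.3, 5.70 and 6.65 and Per3 had means of 12.9, 4.32 and 7.21. Between both kinds of TAL 0 of 12 passed 2-fold, with 9 higher and 3 lower. The part of the time of day or of feeding in the members' ratios was not tested.

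**Figure D5:**
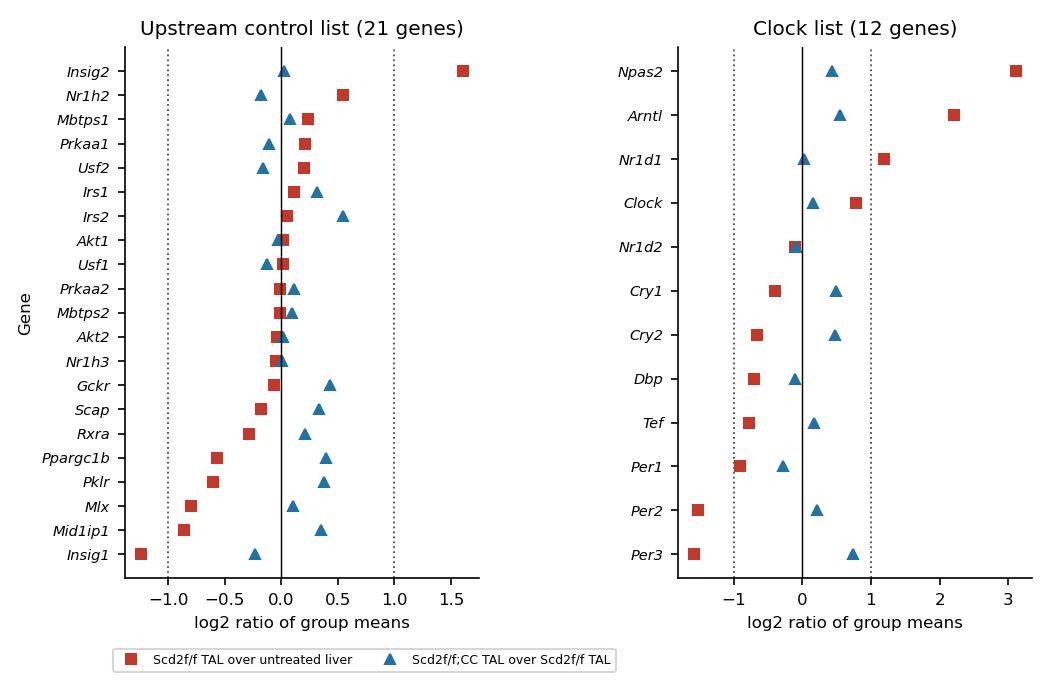
Log2 ratios of group means for 21 genes of upstream control (left) and 12 clock genes (right), with red squares for Scd2f/f TAL over untreated liver and blue triangles for Scd2f/f;CC TAL over Scd2f/f TAL, dotted lines at 2-fold, and no error available. In the upstream control list Insig2 lies beyond the right line and Insig1 beyond the left one in red, and no blue triangle of either list lies beyond a line.

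Most other marker lists also differed between untreated liver and Scd2f/f TAL. The 6 cholangiocyte markers were split, 3 higher and 3 lower, with a median ratio of 0.964. All 6 macrophage markers were at least 2-fold higher, with summed levels of 77.4, 281.5 and 223.0. Of the 10 HSC and portal fibroblast markers 8 were higher, 3 at least 2-fold. The 6 endothelial markers were all higher, 2 of them at least 2-fold, with sums of 105.1, 142.2 and 142.7. The 6 T and B cell markers were all higher at sums of 1.36, 4.20 and 2.80, but none had a mean over the groups of at least 1. Of 6 adipocyte markers 2 were found, Cfd at 0.688, 12.9 and 15.1 and Adrb3 at 1.13, 1.22 and 1.86. Adipoq, Plin1, Lep and Retn were not listed, so their levels are unknown and the adipocyte values rest on Cfd and Adrb3 alone. The lowest means of any listed gene were 0.04, 0.0348 and 0.0349, so no marker could have been listed at 0. The part of these cells in the lower Thrsp, Lpin1, Acly and Acss2 means was not tested. The hepatocyte sum of Scd2f/f TAL differs from that of untreated liver by a log2 of only -0.0017. Scaling to that sum therefore leaves those 4 genes at least 2-fold lower whatever the part of these cells, and does not address it.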

How the data were processed

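Polyadenylated RNA of 9 livers was sequenced from libraries made, per the labels, with the TruSeq RNA v2 kit, which does not mark strand. The strand setting of the counting is not stated. The submitters' processing notes name STAR 2.6.1 and Partek 6 with mm10, and the study's methods name Gencode M3, the Partek E/M method, upper quartile normalization and Partek Gene Specific Analysis. The deposited table of 16755 genes holds, as the signal of each group, the authors' least-squares mean per group, made from normalized counts and given to 3 significant digits. Single samples were not analysed here. Therefore the depth per sample is unknown, and no test was run. The 8 columns of the authors' comparisons, which hold p-values, FDR, ratios and fold changes, were not used.

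Ratios of the group means were computed for all genes with no pseudocount, and 2-fold was the limit for counting. Levels per kilobase used the union of exons in GENCODE M21. The 32 members were taken by gene symbol, and all are named in the text by role. Other genes named are Scd2 and, of the upstream control and further enzymes lists, those past 2-fold with a mean of at least 1, at most 5 per list by the size of the ratio, an order set after the values were seen. Marker lists are given by counts and sums. The lists were upstream control, further enzymes, clock and cell type markers (hepatocyte, HSC with portal fibroblast, cholangiocyte, endothelial, macrophage, T and B cell, adipocyte). The members and lists were chosen with earlier results of these data known, and the clock list with its named genes, Acss1, Alb and the adipocyte markers were named after their values were seen. Of 16171 genes matched by symbol to GENCODE M21 (GRCm38), 99.97% overlapped the gene of that name, 14888 had its start, and 14823 had its end once 1 base was taken off the file's end, as was done for all genes, beside 80 with its end as written. Promoters came from RefSeq. An item of the upstream control list is not reported here. The ratio and count steps were tested on simulated data. Alternatives were limits of 1.5- and 3-fold, minimum means of 1 and 10, a pseudocount of 1, centring on the median of all genes, and scaling to the hepatocyte marker sum. Python 3.11.15 was used with NumPy 2.4.6, pandas 2.3.3 and Matplotlib 3.10.9.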

Additional observations from a re-analysis of the deposited data

How the results depend on the processing

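At limits of 1.5-fold and 3-fold in place of 2-fold, the number of members past the limit in either direction was 10 and 2 between Scd2f/f TAL and untreated liver, 5 and 1 between both kinds of TAL, and 15 and 3 between Scd2f/f;CC TAL and untreated liver. Scaling to the hepatocyte markers shifted the log2 ratios by 0.17 in both comparisons of Scd2f/f;CC TAL, and the members' median became -0.21 against Scd2f/f TAL and -0.37 against untreated liver; with a pseudocount of 1 the latter was -0.10. The pseudocount took Elovl7 below 2-fold in both comparisons in which it had passed, centring brought Elovl6 past 2-fold in Scd2f/f TAL, and hepatocyte scaling brought Fads1 past it in Scd2f/f;CC TAL over untreated liver. Gpam changed sign with centring, and Dgat1 and Lpin2 did so with hepatocyte scaling against untreated liver. No member past 2-fold changed direction, which these alternatives could not have produced. Centring and hepatocyte scaling shifted the log2 ratios by at most 0.17. The pseudocount shifted low means further, as for Elovl7 from -1.98 to -0.549 between both kinds of TAL, but it keeps the sign of a ratio.

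No paired analysis was possible because the table gives 1 mean per group, and for the same reason leaving out replicates was not run. Depth is unknown, so among the members the ratios of Pnpla3 and Elovl7, with means below 1, are the least certain.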
